A study of Mus musculus with 12 samples.

Results

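The 10 genes described here encode the insulin-like growth factor (IGF) binding proteins *Igfbp2*, *Igfbp3*, *Igfbp4*, *Igfbp5*, *Igfbp6* and *Igfbp7*, the receptors *Igf1r* and *Insr*, and the receptor substrates *Irs1* and *Irs2*. They were picked by gene symbol from the 55385 genes of the expression table, with their levels already known, so their levels and fold changes are given as a description with no p-value, and where members are counted as called by the fit over all genes, that count is a description too. IGF1 and IGF2 are secreted ligands that activate the IGF1 receptor, a tyrosine kinase closely related to the insulin receptor. The activated receptors phosphorylate the insulin receptor substrates, which recruit phosphoinositide 3-kinase (PI3K) and switch on AKT, and AKT in turn keeps FOXO transcription factors out of the nucleus. The IGF-binding proteins are secreted carriers that hold the ligands in the circulation and in tissue, and proteases release the ligands again by cleaving them. In the testis this pathway is best known for its part in Sertoli cell number and in the output of germ cells, and nuclear FOXO1 is a known mark of undifferentiated spermatogonia.

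RNA was sequenced from sorted and pooled spermatogonia of adult mice in 12 libraries, 2 in each of 6 groups. WT C57BL/6 males of 2 to 3 months gave undifferentiated spermatogonia (Aundiff, sorted as E-Cadherin+ CD9high KIT-) and early differentiating spermatogonia (Adiff, sorted as E-Cadherin+ CD9medium KIT+). The other 4 groups were Aundiff from PRC1ctrl (Ring1-/-; Rnf2 F/+; Ddx4-Cre) and PRC1cKO (Ring1-/-; Rnf2 F/-; Ddx4-Cre) males on a mixed background of C57BL/6 and FVB/NJ, either at 2 months (2 mo) or after Win18446, a blocker of retinoic acid synthesis given from 1 month of age in about 30 daily treatments of 50 µl at 40 µg/µl in DMSO, with cells taken 24 h after the last. Every PRC1 mouse, controls included, thus lacked *Ring1*, and *Ddx4*-Cre acts in the germ line and not in the somatic cells of the testis. RING1 and RNF2 are the catalytic subunits of Polycomb repressive complex 1 (PRC1), which ubiquitinates histone H2A. The study's methods describe the 2 libraries of a group as independent biological replicates of pooled cells, and the labels do not say how many animals each pool held.

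The values are TPM, transcript abundances that are scaled for transcript length and therefore allow levels to be compared between genes. *Ring1* stood at 8.61 and 10.4 TPM in WT Aundiff and at 14.7 and 19.9 TPM in WT Adiff, and no PRC1 library passed 0.25 TPM. *Rnf2* was not lower in the libraries labelled PRC1cKO than in the controls, with 56.7 and 67.5 against 28.3 and 47.6 TPM at 2 mo and 86.2 and 93.1 against 78.1 and 67.2 TPM after Win18446. A value over the whole gene does not separate the deleted exons, so these numbers check neither label for *Rnf2*. The 4 libraries at 2 mo were made with a low-input kit (Smart-Seq2) and the other 8 with a polyA kit (TruSeq), and they stood apart in 12422 to 13986 genes at 1 TPM or more against 14796 to 16599, and in 12.5 to 16.7% mitochondrial TPM against 4.28 to 6.69%. Among the PRC1 libraries kit and treatment cannot be told apart, so each PRC1 comparison was made within 1 kit. All 16 markers of undifferentiated spermatogonia reached 1 TPM in WT Aundiff, where they summed to 1323 and 1476 TPM, against 330.1 and 365 TPM in WT Adiff. RNA of other cells was present too. The 8 spermatid markers summed to 862 and 941 TPM in WT Aundiff and to 651 and 825 TPM in WT Adiff. The 12 Sertoli cell markers summed to 69.1 and 79.8 against 47.1 and 50.4 TPM, and the part of such RNA in the members' values was not tested.

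*Igfbp2* was the most abundant of the 6 binding protein genes in 11 of the 12 libraries, and *Igfbp6* led in the remaining one, PRC1ctrl at 2 mo replicate 1. *Igfbp2* (ENSMUSG00000039323, plus strand of chr1:72824503-72852474, GRCm38) encodes a carrier that binds both IGFs and also carries an integrin-binding motif. It stood at 158 and 177 TPM in WT Aundiff, 252 and 311 TPM in WT Adiff, 4.81 and 25.4 TPM in PRC1ctrl at 2 mo, 15.1 and 61.0 TPM in PRC1cKO at 2 mo, 140 and 160 TPM in PRC1ctrl after Win18446, and 159 and 173 TPM in PRC1cKO after Win18446. Both WT Adiff libraries were above every other library, and the 4 libraries at 2 mo were below every other library. Within the 2 mo groups the higher library had 5.27 times the TPM of the lower one in PRC1ctrl and 4.05 times in PRC1cKO, so these groups overlapped.

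*Igfbp6* (ENSMUSG00000023046, plus strand of chr15:102144362-102149511) encodes the binding protein that prefers IGF2 over IGF1. It stood at 87.4 and 115 TPM in WT Aundiff and at 4.07 and 1.76 TPM in WT Adiff, and no other member differed so far between its group means on the log2 scale (4.76). In the PRC1 mice it was at 6.64 and 23.1 TPM in PRC1ctrl and at 2.56 and 7.93 TPM in PRC1cKO at 2 mo. After Win18446 it was at 59.7 and 75.5 TPM in PRC1ctrl and at 33.4 and 35.8 TPM in PRC1cKO. The groups ran in the order WT Aundiff, PRC1ctrl after Win18446, PRC1cKO after Win18446, PRC1ctrl at 2 mo, PRC1cKO at 2 mo and WT Adiff, and the last 3 overlapped with their neighbours.

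The promoters of *Igfbp2*, *Igfbp6* and *Igf1r* are shown because the first pair are the most abundant binding protein genes in WT Aundiff and differ in opposite directions in WT Adiff, and *Igf1r* is the main receptor gene. Each line is the RefSeq sequence (GRCm38.p6, plus strand, 5′ to 3′) from 250 bases before to 50 bases from the transcript start on, at chr1:72824230-72824529 for *Igfbp2*, chr15:102143936-102144235 for *Igfbp6* and chr7:67952007-67952306 for *Igf1r*. The starts used were 72824480, 102144186 and 67952257, and the gene coordinates given here start later, at 72824503, 102144362 and 67952827. The *Igfbp6* and *Igf1r* windows thus end before those gene starts, and other starts of these genes were not searched. Capitals mark the letters of 4 motifs searched on both strands, namely the GC box GGGCGG, the TATA box TATAAA, the E box CACGTG and the nuclear receptor motif AGGTCA, and none of the matches shown overlap.
Igfbp2: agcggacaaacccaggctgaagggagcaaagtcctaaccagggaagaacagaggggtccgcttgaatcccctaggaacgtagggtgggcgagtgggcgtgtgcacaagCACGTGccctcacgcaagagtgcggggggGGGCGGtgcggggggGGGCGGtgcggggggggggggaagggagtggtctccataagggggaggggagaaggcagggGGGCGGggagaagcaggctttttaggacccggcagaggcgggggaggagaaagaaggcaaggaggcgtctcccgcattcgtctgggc
Igfbp6: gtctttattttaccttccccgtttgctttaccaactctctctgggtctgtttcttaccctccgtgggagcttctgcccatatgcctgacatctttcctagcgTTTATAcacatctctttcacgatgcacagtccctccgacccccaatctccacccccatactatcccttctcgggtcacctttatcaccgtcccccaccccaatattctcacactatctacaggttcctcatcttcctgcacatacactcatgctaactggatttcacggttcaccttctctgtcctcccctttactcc
Igf1r: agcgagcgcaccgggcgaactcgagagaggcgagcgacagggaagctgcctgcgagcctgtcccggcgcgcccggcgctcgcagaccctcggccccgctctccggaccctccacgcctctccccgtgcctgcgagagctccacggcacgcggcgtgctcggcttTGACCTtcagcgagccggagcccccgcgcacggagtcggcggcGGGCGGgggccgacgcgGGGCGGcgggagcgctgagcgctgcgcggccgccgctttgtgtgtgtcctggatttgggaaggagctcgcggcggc
The *Igfbp2* window held 3 GC boxes and 1 E box, at 113, 98, 37 and 142 bases before the start. The table lists a second start of *Igfbp2*, whose window (chr1:72825137-72825436) held none of the 4 motifs and 14 CpG dinucleotides. The *Igfbp6* window held 1 TATA motif on the opposite strand, 148 bases before the start, and no GC box. The *Igf1r* window held 2 GC boxes, at 43 and 26 bases, and 1 nuclear receptor motif on the opposite strand at 86 bases before the start. Of all 32851 promoter windows in the table, 35.7% held a GC box, 13.6% a TATA box, 7.15% an E box and 16.3% a nuclear receptor motif. The *Igf1r* window held 48 CpG dinucleotides, more than 98.8% of all windows, against 18 for the *Igfbp2* window shown and 8 for *Igfbp6*, and the median of all windows was 7. Of the 10 genes 9 had an entry in the promoter table, and *Insr* is named only. A letter match is a description and not a site of binding.

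**Figure D1:**
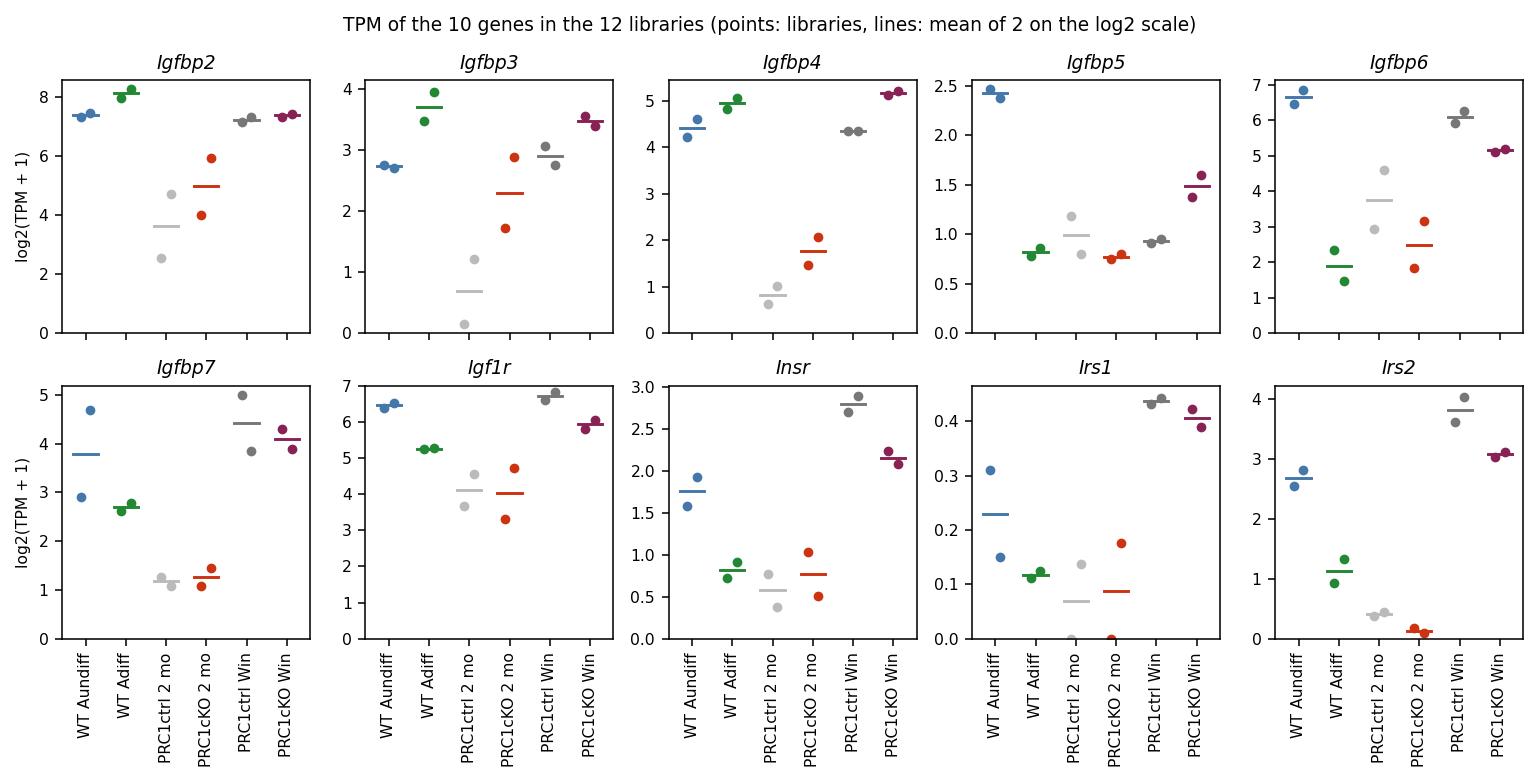
TPM of the 10 genes on a log2(TPM + 1) axis in each of the 12 libraries (points), by group, with a line at the mean of the 2 libraries, where each panel has its own axis. *Igfbp6* is at 87.4 and 115 TPM in WT Aundiff and at 4.07 and 1.76 TPM in WT Adiff, *Igfbp2* has its highest libraries in WT Adiff, and the 2 mo libraries lie low for most of the genes.

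*Igfbp4* (ENSMUSG00000017493, plus strand of chr11:99041244-99054392) and *Igfbp3* (ENSMUSG00000020427, minus strand of chr11:7206086-7213923) had the same direction as *Igfbp2* in WT cells. IGFBP4 mainly withholds IGFs until the protease PAPP-A cleaves it. *Igfbp4* was at 17.8 and 23.4 TPM in WT Aundiff, 27.4 and 32.6 TPM in WT Adiff, 0.56 and 1.03 TPM in PRC1ctrl and 1.79 and 3.19 TPM in PRC1cKO at 2 mo, and 19.4 TPM in both PRC1ctrl libraries against 33.9 and 36.1 TPM in both PRC1cKO libraries after Win18446. In each of the 3 pairs of groups the libraries did not overlap, and Adiff or PRC1cKO was the higher one. IGFBP3 is the main IGF carrier of the blood. *Igfbp3* was at 5.78 and 5.54 TPM in WT Aundiff, 10.1 and 14.5 TPM in WT Adiff, 0.11 and 1.34 TPM in PRC1ctrl and 2.30 and 6.38 TPM in PRC1cKO at 2 mo, and 7.35 and 5.80 TPM in PRC1ctrl against 10.8 and 9.48 TPM in PRC1cKO after Win18446. Here too Adiff or PRC1cKO lay above its own control in all 3 pairs.

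*Igfbp5* (ENSMUSG00000026185, minus strand of chr1:72857932-72874884) lies 5457 bases from *Igfbp2* and points towards it. IGFBP5 binds to extracellular matrix, where it stores IGFs. It stood at 4.54 and 4.20 TPM in WT Aundiff, and no library of another group passed 2.02 TPM. WT Adiff held 0.72 and 0.82 TPM, so the neighbours *Igfbp2* and *Igfbp5* differed in opposite directions between these cells. After Win18446 *Igfbp5* was at 0.88 and 0.93 TPM in PRC1ctrl and at 1.59 and 2.02 TPM in PRC1cKO, while at 2 mo the 4 libraries lay between 0.68 and 1.27 TPM and overlapped. *Igfbp1*, the neighbour of *Igfbp3* at 3539 bases, was listed at 0 in 10 of 12 libraries and at 0.14 TPM at most.

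*Igfbp7* (ENSMUSG00000036256, minus strand of chr5:77349240-77408041) encodes a low-affinity IGF binder that is abundant in blood vessels. It was at 6.44 and 24.7 TPM in WT Aundiff, 5.13 and 5.84 TPM in WT Adiff, 1.41 and 1.12 TPM in PRC1ctrl and 1.11 and 1.75 TPM in PRC1cKO at 2 mo, and 30.8 and 13.4 TPM in PRC1ctrl against 18.8 and 13.9 TPM in PRC1cKO after Win18446. The library with more *Igfbp7* in each of the WT Aundiff and Win18446 groups also had the higher sums of Leydig and peritubular myoid markers. The same held for the Sertoli cell and macrophage sums. The sums of endothelial and stromal markers went the same way in WT Aundiff only. In PRC1ctrl after Win18446 the only endothelial markers lower in the library with more *Igfbp7* were *Egfl7* and *Vwf*. The only such stromal markers were *Col1a1*, at 62.3 and 88.8 TPM, and *Col3a1*. In PRC1cKO after Win18446 *Col1a1* was the only stromal marker lower in that library, and *Pecam1* the only endothelial marker higher in it. In WT Aundiff the 6 peritubular myoid markers summed to 11.4 and 53.7 TPM, the 8 Leydig cell markers to 23.4 and 46.9 TPM, the 7 endothelial markers to 41.5 and 65.7 TPM and the 8 stromal markers to 12.8 and 22.1 TPM. In PRC1ctrl after Win18446 the Leydig cell markers summed to 433 and 87.2 TPM and the peritubular markers to 52.4 and 36.0 TPM, but the endothelial markers to 40.0 and 41.4 TPM and the stromal markers to 93.0 and 104 TPM. In PRC1cKO after Win18446 these sums were 88.1 and 27.5, 46.1 and 38.2, 54.0 and 60.8, and 31.7 and 35.8 TPM in the same order. The Sertoli cell markers summed to 69.1 and 79.8 TPM in WT Aundiff. After Win18446 they summed to 266 and 165 TPM in PRC1ctrl and to 311 and 183 TPM in PRC1cKO. The macrophage markers summed to 15.5 and 22.0, 51.8 and 31.7, and 33.7 and 26.7 TPM in the same groups. No marker of the Leydig, peritubular and endothelial lists was at 0 in both libraries of one of these groups, and the part of such cells in the *Igfbp7* values was not tested.

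*Igfbp2* and *Igfbp6* together made up most of the RNA of the binding protein family, and their balance differed between groups. The share of a gene in the summed TPM of *Igfbp1* to *Igfbp7* is a ratio within a library and does not move with library scaling. *Igfbp6* held 32.1% ± 1.16 of the family in WT Aundiff and 0.920% ± 0.623 in WT Adiff (SD, n = 2 each), and *Igfbp2* held 53.5% ± 4.13 and 84.5% ± 0.497. At 2 mo the share of *Igfbp6* was 44.3% ± 0.767 in PRC1ctrl and 10.3% ± 0.792 in PRC1cKO, although its TPM values overlapped, and the share of *Igfbp2* was 40.3% ± 11.1 and 69.6% ± 7.86. After Win18446 *Igfbp6* held 25.3% ± 3.06 in PRC1ctrl and 13.1% ± 0.174 in PRC1cKO, and *Igfbp4* 7.28% ± 0.328 and 13.3% ± 0.117. In all 3 pairs of groups the share of *Igfbp6* was thus the lower one in Adiff or PRC1cKO, with no overlap between libraries. The *Igfbp6* TPM as a percentage of the *Igfbp2* TPM in the same library gave 55.3 and 65.0 in WT Aundiff against 1.62 and 0.566 in WT Adiff, 138 and 90.9 in PRC1ctrl against 17.0 and 13.0 in PRC1cKO at 2 mo, and 42.5 and 47.1 against 21.0 and 20.7 after Win18446. The summed TPM of the family was 315 ± 49.4 in WT Aundiff and 333 ± 47.7 in WT Adiff, and 267 ± 12.03 in PRC1ctrl against 264 ± 9.39 in PRC1cKO after Win18446. At 2 mo it was 33.7 ± 26.8 in PRC1ctrl and 52.3 ± 40.7 in PRC1cKO.

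**Figure D2:**
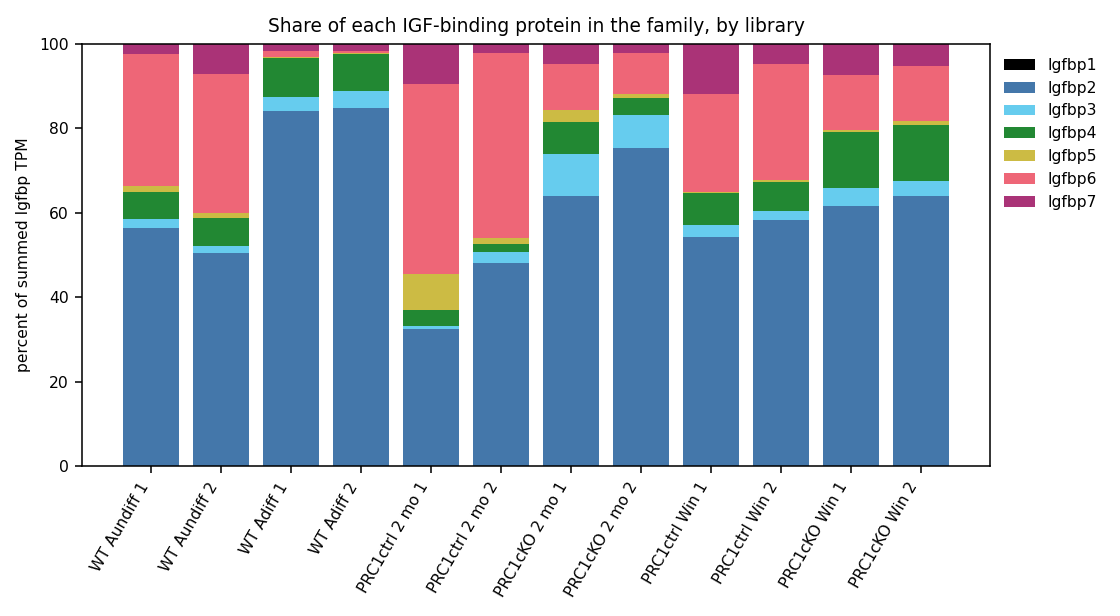
Share of each IGF-binding protein gene in the summed TPM of *Igfbp1* to *Igfbp7*, in percent, as stacked bars from 0 to 100 for each of the 12 libraries. The *Igfbp6* share is 32.1% on average in WT Aundiff and 0.920% in WT Adiff, and 44.3% in PRC1ctrl against 10.3% in PRC1cKO at 2 mo.

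Among the receptors, *Igf1r* RNA exceeded *Insr* RNA in every library, from 8.68 times in PRC1cKO at 2 mo replicate 1 to 74.8 times in PRC1ctrl at 2 mo replicate 2. *Igf1r* (ENSMUSG00000005533, plus strand of chr7:67952827-68233668) was at 83.3 and 91.6 TPM in WT Aundiff, 37.3 and 37.5 TPM in WT Adiff, 11.8 and 22.4 TPM in PRC1ctrl and 9.03 and 25.2 TPM in PRC1cKO at 2 mo, and 96.4 and 113 TPM in PRC1ctrl against 55.3 and 65.0 TPM in PRC1cKO after Win18446. The WT and the Win18446 pairs did not overlap, and the 2 mo pair did. *Insr* (ENSMUSG00000005534, minus strand of chr8:3122061-3279617) was at 1.99 and 2.81 TPM in WT Aundiff, 0.65 and 0.89 TPM in WT Adiff, 0.71 and 0.30 TPM in PRC1ctrl and 1.04 and 0.42 TPM in PRC1cKO at 2 mo, and 5.53 and 6.41 TPM in PRC1ctrl against 3.71 and 3.23 TPM in PRC1cKO after Win18446. Both receptor genes were highest in PRC1ctrl after Win18446 and had the same directions as each other in the pairs that did not overlap.

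IRS1 and IRS2 are the docking proteins that carry the signal of both receptors to PI3K. *Irs2* (ENSMUSG00000038894, minus strand of chr8:10984681-11008458) was at 4.86 and 6.03 TPM in WT Aundiff, 0.90 and 1.52 TPM in WT Adiff, 0.30 and 0.36 TPM in PRC1ctrl and 0.13 and 0.07 TPM in PRC1cKO at 2 mo, and 11.2 and 15.3 TPM in PRC1ctrl against 7.21 and 7.69 TPM in PRC1cKO after Win18446. No neighbours in the order of its 6 groups overlapped, but all its 2 mo values were below 1 TPM, where levels cannot be compared. *Irs1* (ENSMUSG00000055980, minus strand of chr1:82233101-82291416) never passed 0.36 TPM and was listed at 0 in 2 libraries, and it passed no filter on low values. Exons of other genes on the opposite strand cover 30.9% of the *Irs1* exons, 7.03% of those of *Igfbp7* and 2.56% of those of *Irs2*. The table gives 1 value per gene, and reads of such stretches can be told apart only where strand was kept. The study's methods call the WT and Win18446 libraries stranded and do not say so of those at 2 mo.

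The first comparison asks how the pathway differs between WT Aundiff and the early differentiating Adiff cells. Fold changes here are differences of mean log2(TPM + 1), Adiff minus Aundiff, with the standard error of a limma fit over the genes with at least 1 TPM in at least 2 of the 4 libraries, and a gene counts as called when its adjusted p is under 0.05 and its log2 change exceeds 1 in size. *Igfbp6* differed by -4.76 ± 0.31 (SE), a mean TPM 34.7 times lower in Adiff. *Igfbp5* differed by -1.60 ± 0.25, *Irs2* by -1.55 ± 0.28 and *Igf1r* by -1.20 ± 0.13. *Insr* followed at -0.93 ± 0.28. On the other side *Igfbp3* differed by 0.98 ± 0.24, *Igfbp2* by 0.74 ± 0.15 and *Igfbp4* by 0.53 ± 0.20. *Igfbp7* differed by -1.09 ± 0.59 and moved to -0.20 without WT Aundiff replicate 2 and to -1.99, a call, without replicate 1.

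Of the 9 members tested 4 were called lower (*Igfbp5*, *Igfbp6*, *Igf1r* and *Irs2*) and 0 higher, and of all 15470 genes 9.24% were called lower and 11.1% higher. Both Adiff libraries lay below both Aundiff libraries for 7 of the 10 members, *Irs1* below the filter included, and above them for 3, against 28.7% and 43.4% of all genes tested. Nothing is read from these counts, since the members were chosen with these values known. The median log2 change was -1.09 over the 9 members tested and 0.15 over all genes. *Igfbp3* was called with a pseudocount of 0.1 or without WT Adiff replicate 1, *Insr* with median-of-ratios scaling, and *Igf1r* lost its call when all 12 libraries were fitted together.

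The PRC1cKO libraries were compared with PRC1ctrl at 2 mo, PRC1cKO minus PRC1ctrl, within the low-input kit. *Igfbp3* differed by 1.61 ± 0.60 (SE), *Igfbp2* by 1.35 ± 0.94, *Igfbp4* by 0.94 ± 0.40 and *Igfbp6* by -1.27 ± 0.74. *Igfbp7* and *Igf1r* were at 0.09 ± 0.36 and -0.09 ± 0.61. The other 4 members failed the filter on low values, among them *Irs2*, for which both PRC1cKO libraries were below both controls. Of the 6 members tested 0 were called, against 0.222% called higher and 1.94% called lower of 13953 genes. The PRC1cKO libraries lay above the controls for 2 of the 10 members and below them for 1, *Irs2* below the filter, against 27.5% and 17.3% of all genes tested. The standard errors were wide, with a median of 0.42 over all genes against 0.22 in WT, and leaving out 1 library moved *Igfbp2* between 0.26 without PRC1ctrl replicate 1 and 2.44 without PRC1ctrl replicate 2. It moved *Igfbp6* between -2.09 and -0.44 without these same libraries, *Igfbp3* between 1.03 without PRC1cKO replicate 2 and 2.195 without PRC1cKO replicate 1, and *Igf1r* across 0, between -0.79 and 0.60, without the latter pair. Marker lists differed as well. The 10 markers of differentiating spermatogonia summed to 331 and 471 TPM in PRC1ctrl and to 728 and 986 TPM in PRC1cKO. The 8 spermatid markers summed to 784 and 1830 TPM in PRC1ctrl and to 86.6 and 87.8 TPM in PRC1cKO, the 8 Leydig cell markers to 1.42 and 1.35 against 22.8 and 64.1 TPM, and the 16 markers of undifferentiated spermatogonia to 1100 and 1563 against 519 and 624 TPM. Within this last list *Sall4*, at 517 and 704 against 266 and 314 TPM, *Nanos3*, *Upp1*, *Lin28a*, *Tspan8*, *Id4* and *Eomes* were lower in both PRC1cKO libraries. The rest overlapped between the groups, among them *Gfra1*, at 7.18 and 15.0 against 8.83 and 23.6 TPM, *Etv5*, *Zbtb16*, *Ret* and *Bcl6b*. The part of these marker lists in the members' values was not tested, and in sorted bulk cells fewer cells of a type and less RNA per cell cannot be told apart.

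After Win18446, a treatment given to block differentiation in both genotypes, the same comparison was made within the polyA kit. *Igfbp6* differed by -0.94 ± 0.15 (SE), *Igf1r* by -0.79 ± 0.14, *Irs2* by -0.74 ± 0.18 and *Insr* by -0.64 ± 0.17. *Igfbp4* differed by 0.82 ± 0.12, *Igfbp3* by 0.56 ± 0.17 and *Igfbp5* by 0.55 ± 0.18. *Igfbp2* and *Igfbp7*, whose libraries overlapped, were at 0.14 ± 0.12 and -0.32 ± 0.44. None of the 9 members tested passed the limit of 1 on the log2 scale, so 0 were called, against 1.27% called higher and 10.9% called lower of 16521 genes. Both PRC1cKO libraries were above both controls for 3 of the 10 members and below them for 5, *Irs1* included, against 20.1% and 49.3% of all genes tested. The median log2 change was -0.32 over the members and -0.19 over all genes. With median-of-ratios scaling, which brings the median of all genes to 0.03, *Igfbp4* was at 1.05 and called and *Igfbp6* was at -0.70, and without PRC1ctrl replicate 1 *Igfbp6* was called.

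Markers of other cells differed in this comparison too. The 8 interstitial stromal markers summed to 93.0 and 104 TPM in PRC1ctrl and to 31.7 and 35.8 TPM in PRC1cKO, where *Lum* was at 0 in both libraries, and the Leydig cell markers to 433 and 87.2 against 88.1 and 27.5 TPM. The 12 Sertoli cell markers summed to 266 and 165 against 311 and 183 TPM, and the 7 endothelial markers to 40.0 and 41.4 against 54.0 and 60.8 TPM. Within the endothelial list *Egfl7*, at 20.7 and 24.7 against 40.6 and 45.8 TPM, and *Kdr* were higher in both PRC1cKO libraries. *Cdh5*, at 5.01 and 4.80 against 2.29 and 2.43 TPM, and *Vwf* were lower in both, and *Pecam1*, *Tek* and *Esam* overlapped. The 16 markers of undifferentiated spermatogonia were at 1341 and 1423 TPM in PRC1ctrl and at 1017 and 1139 TPM in PRC1cKO, and the 10 markers of differentiating spermatogonia at 758 and 793 against 891 and 987 TPM. The 8 spermatid markers summed to 189 and 180 against 64.2 and 72.3 TPM, with *Acrv1* and *Prm2* at 0 in both PRC1cKO libraries. *Igfbp6* and *Igf1r* were thus lower in PRC1cKO beside lower sums of stromal, spermatid and undifferentiated markers and a higher sum of differentiating markers. None of these sums stood for all of its markers. In the undifferentiated list *Gfra1* was higher in both PRC1cKO libraries, and *Id4*, *Ret*, *Eomes* and *Nanos2* overlapped. In the differentiating list *Stra8* was lower in both, and *Ccnd2*, *Dnmt3b* and *Sohlh1* overlapped. In the stromal list only *Col1a1*, *Dcn* and *Col3a1* were lower in both, and *Nr2f2* was higher. In the spermatid list *Odf2* and *Spaca1* overlapped. The endothelial sum was higher as well, and its markers went in different directions too. The part of any of these in the members' values was not tested.

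**Figure D3:**
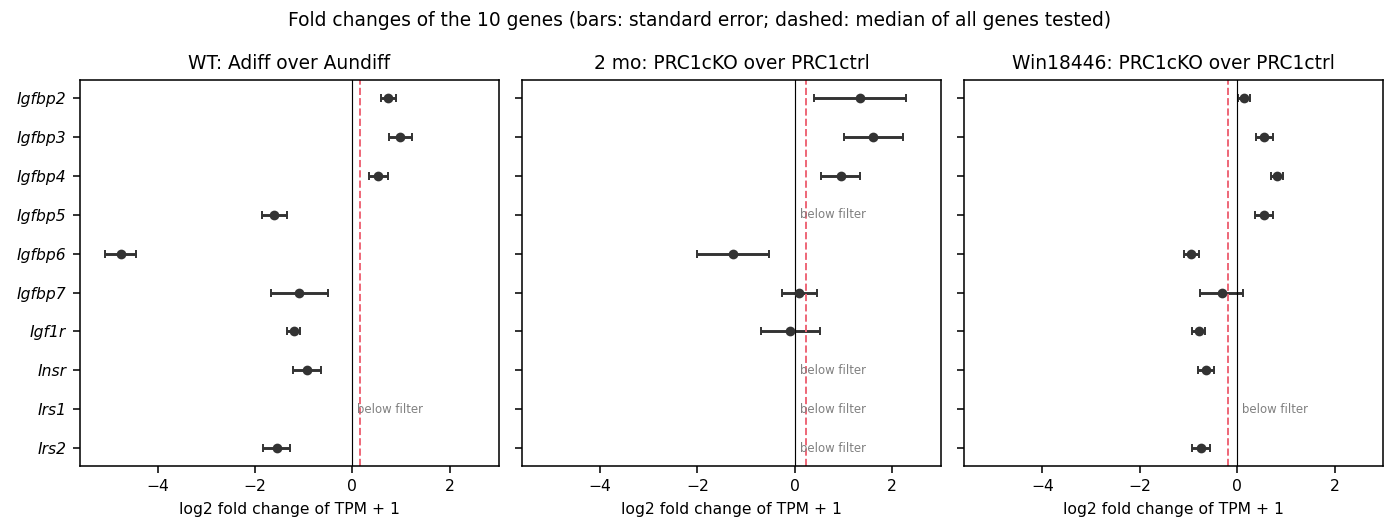
Difference of mean log2(TPM + 1) for the 10 genes in the 3 comparisons, with bars for the standard error of the limma fit, a solid line at 0 and a dashed line at the median of all genes tested; genes marked as below filter were not fitted. *Igfbp6* is at -4.76 in WT, -1.27 at 2 mo and -0.94 after Win18446, and *Igfbp4* is at 0.53, 0.94 and 0.82.

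The WT and Win18446 comparisons share no library. Of the 9 members tested in both, 6 differed in the same direction with no overlap of libraries, namely *Igfbp3* and *Igfbp4* upwards and *Igfbp6*, *Igf1r*, *Insr* and *Irs2* downwards. *Igfbp5* was lower in Adiff and higher in PRC1cKO, and *Igfbp2* and *Igfbp7* overlapped in the Win18446 pair. Of the 14499 genes tested in both comparisons 26.5% had the same direction and 24.7% opposite directions with no overlap. The difference between the PRC1 effects at 2 mo and after Win18446 was fitted as an interaction over 8 libraries, Win18446 minus 2 mo, and lay between -1.21 ± 1.15 (SE) for *Igfbp2* and 0.77 ± 0.29 for *Igfbp5*. Of the 9 members tested 0 were called, against 2.76% called higher and 4.98% called lower of 18354 genes, and the kit and the treatment cannot be told apart in this fit. Of the 51 pathway genes tested in the same limma fit, described below, 0 were called and 11 had an unadjusted p under 0.05, against 4541 of all 18354 genes. The median of the interaction over all genes was -0.41. Scaling by median of ratios brought that to 0.11, and there *Igfbp4*, *Igfbp7* and *Irs2* changed sign to 0.29, 0.17 and 0.04 and *Igf1r* came to 0.0059.

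The rest of the pathway was followed with 60 further genes: ligands, other receptors, other binding proteins, proteases, adaptors, negative regulators, the PI3K and AKT branch and the IGF2 mRNA-binding proteins. In WT cells 6 of the 48 genes tested were called higher in Adiff and 5 lower, or 12.5% and 10.4%, against 11.1% and 9.24% of all genes. *Grb10*, an adaptor that blocks the receptor kinase, rose from 16.4 and 20.8 TPM in Aundiff to 117 and 109 TPM in Adiff, and *Grb14*, its relative, from 1.06 and 1.27 to 9.84 and 11.7 TPM. Their log2 changes were 2.55 ± 0.16 (SE, limma adjusted p = 0.000703) and 2.44 ± 0.24 (limma adjusted p = 0.00158). *Phlda3*, which competes with AKT for membrane lipid, rose from 6.43 and 6.70 to 37.6 and 47.9 TPM (2.52 ± 0.19, limma adjusted p = 0.000951). The adaptor *Sh2b2* rose from 1.24 and 0.97 to 9.71 and 14.4 TPM (2.61 ± 0.27, limma adjusted p = 0.00185) and *Dok1* from 3.83 and 5.35 to 15.3 and 18.4 TPM (1.69 ± 0.23, limma adjusted p = 0.00375). For these 5 genes both Adiff libraries were well above both Aundiff libraries.

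Other inhibitors fell. *Socs3*, a cytokine-induced suppressor of receptor signalling, fell from 12.02 and 12.8 to 1.75 and 3.02 TPM (-2.01 ± 0.26, limma adjusted p = 0.00325), and *Trib3*, a pseudokinase that binds AKT, from 24.1 and 25.9 to 6.72 and 6.99 TPM (-1.73 ± 0.18, limma adjusted p = 0.00172). *Igf2bp2*, an RNA-binding protein named for its binding of *Igf2* mRNA, fell from 23.1 and 30.3 to 7.32 and 5.22 TPM (-1.93 ± 0.24, limma adjusted p = 0.00265). *Pik3ca*, the catalytic p110α subunit of PI3K, fell from 11.5 and 11.4 to 4.88 and 4.26 TPM (-1.16 ± 0.21, limma adjusted p = 0.00787), and the substrate gene *Irs4* from 2.23 and 2.61 to 0.71 and 0.65 TPM (-1.02 ± 0.27, limma adjusted p = 0.0264). The sixth gene called higher was *Socs1*, and the list's median was 0.12 against 0.15 over all genes. By group, 4 of 10 negative regulators were called higher and 2 lower, 2 of 9 adaptors higher and 1 lower, 0 of 21 genes of the PI3K and AKT branch higher and 1 lower, and 0 of 3 *Igf2* mRNA-binding protein genes higher and 1 lower. Without the limit on size, 6 genes of the PI3K and AKT branch were higher and 2 lower at a limma adjusted p under 0.05. Over all 15470 genes 5892 had a limma adjusted p under 0.05 in either direction. Both Adiff libraries were above both Aundiff libraries for 10 of the 21 branch genes and below them for 7. Of all genes tested 43.4% lay above and 28.7% below. *Irs4* was not called without the filter on low values or without WT Adiff replicate 2, and *Pik3ca* was not called without WT Aundiff replicate 1.

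Of the ligands only *Igf2* passed the filter in WT cells, with 23.7 and 31.2 TPM in Aundiff and 22.0 and 21.8 TPM in Adiff (-0.30 ± 0.19, limma adjusted p = 0.242). *Igf2* stood between 10.9 and 32.4 TPM in all 12 libraries. *Igf1* reached 2.07 TPM at most, and the insulin genes *Ins1* and *Ins2* were at 0.30 TPM or less. *Igf2r*, which takes up IGF2 and carries it to lysosomes, was at 19.5 and 22.4 TPM in WT Aundiff and 21.9 and 22.4 TPM in WT Adiff (0.08 ± 0.16, limma adjusted p = 0.726), and the insulin receptor-related gene *Insrr* stayed at or below 0.35 TPM.

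At 2 mo 1985 of all 13953 genes had an unadjusted p under 0.05 in the limma fit. Of the 38 pathway genes tested 0 were called, and 2 had an unadjusted p under 0.05. These were *Socs2*, another suppressor of receptor signalling, at 1.37 ± 0.41 (SE, limma adjusted p = 0.207), and *Foxo3*, a FOXO transcription factor, at -1.05 ± 0.39 (limma adjusted p = 0.313), both named after their values were seen. *Igf2* was at 10.9 and 19.5 TPM in PRC1ctrl and at 11.1 and 31.4 TPM in PRC1cKO, and the groups overlapped (0.34 ± 0.60). *Igf1* was at 0.40 and 0.85 against 1.38 and 1.67 TPM (0.65 ± 0.34, limma adjusted p = 0.477), and *Igf2r* at 3.44 and 2.52 against 2.35 and 2.87 TPM. The list's median was 0.24 and that of all genes 0.22.

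After Win18446 2 of 51 pathway genes tested rose and 3 fell in PRC1cKO, or 3.92% and 5.88%, against 1.27% and 10.9% of all genes. *Phlda3* rose from 9.88 and 9.60 to 22.7 and 24.4 TPM (1.19 ± 0.13, limma adjusted p = 0.00263) and *Dok1* from 7.58 and 9.57 to 20.0 and 21.5 TPM (1.19 ± 0.16, limma adjusted p = 0.00358). *Rictor*, the defining subunit of mTOR complex 2, which phosphorylates AKT, fell from 70.4 and 82.3 to 25.7 and 29.3 TPM (-1.44 ± 0.14, limma adjusted p = 0.00202). *Tsc2*, the brake on mTOR complex 1, fell from 109 and 128 to 46.5 and 57.1 TPM (-1.18 ± 0.15, limma adjusted p = 0.00299), and *Pik3ca* from 38.1 and 28.1 to 18.2 and 13.2 TPM (-1.03 ± 0.21, limma adjusted p = 0.0129). The 3 genes that fell belong to the PI3K and AKT branch, in which 15 of 21 genes had both PRC1cKO libraries below both controls and 0 above, against 49.3% and 20.1% of all genes tested. *Igf2r* was at 48.6 and 57.8 TPM in PRC1ctrl and at 21.8 and 31.0 TPM in PRC1cKO, with a log2 change of -0.9998 ± 0.19 that was just short of the limit of 1 (limma adjusted p = 0.01). *Igf2* was at 28.3 and 32.4 against 24.4 and 30.8 TPM (-0.14 ± 0.16, limma adjusted p = 0.532) and *Igf1* at 2.07 and 1.36 against 1.96 and 1.67 TPM. The list's median was -0.26 against -0.19 over all genes. With median-of-ratios scaling *Tsc2* was at -0.94 and *Pik3ca* at -0.80, both no longer called, and *Phlda3* was not called when all 12 libraries were fitted together.

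**Figure D4:**
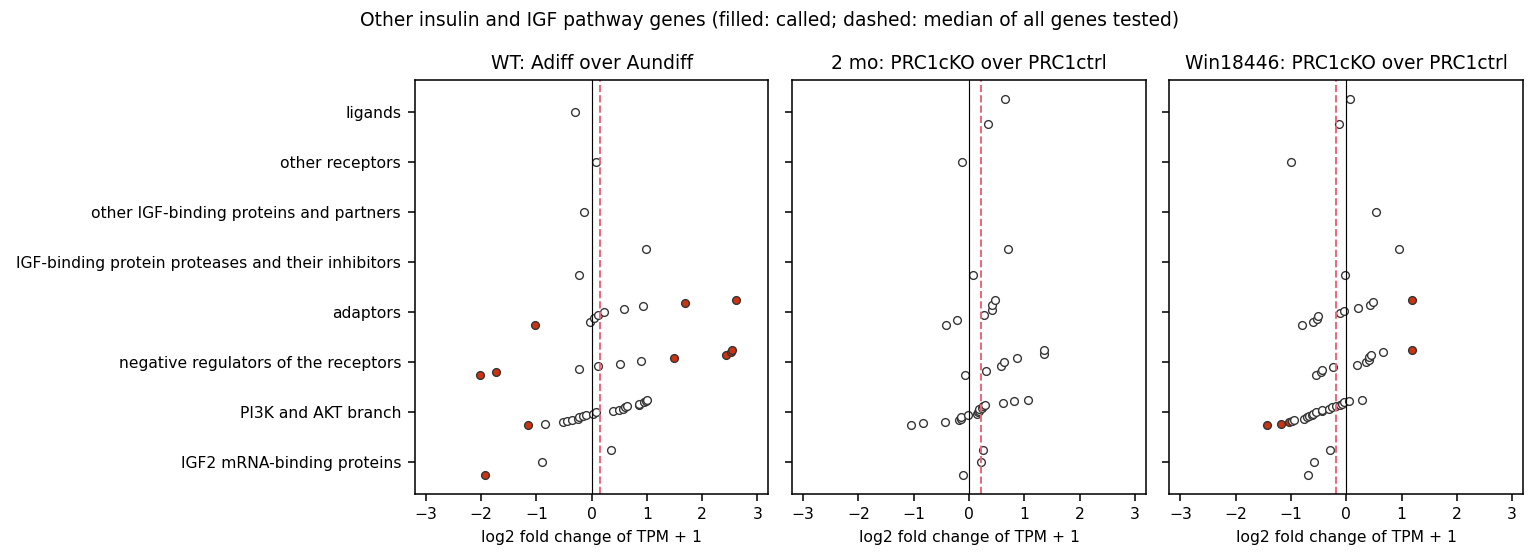
Difference of mean log2(TPM + 1) for the tested genes among the 60 other pathway genes in the 3 comparisons, one point per gene by group, filled where called, with a dashed line at the median of all genes tested. Filled points number 11 in WT, 0 at 2 mo and 5 after Win18446, and negative regulators lie on both sides of 0 in WT.

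For the 4 members whose group means differed most, the 3 protein-coding genes with the most alike pattern were taken by Pearson's r of log2(TPM + 1) over the 12 libraries, out of 15032 genes. For *Igfbp6* these were *Cd274* (0.970), *Vsig10* (0.969) and *Pygl* (0.963). For *Igfbp2* they were *Atp6v0c* (0.998), *Dhrs13* (0.996) and *Mrpl38* (0.996), for *Igfbp4* *Slc39a11* (0.996), *Nectin2* (0.994) and *Ppp2r2c* (0.993), and for *Irs2* *Eml2* (0.996), *Gm7694* (0.992) and *Mycn* (0.991). The 12 points share groups and kits, so this is a description of likeness in these libraries, and no p is given.

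Over all expressed genes, the difference between the 2 mo controls and WT Aundiff went with base composition. Over protein-coding genes with at least 1 TPM in at least 2 libraries, split into 5 equal sets by the GC content of the longest transcript, the median difference between PRC1ctrl at 2 mo and WT Aundiff was 0.47, -0.29, -0.95, -1.47 and -2.09 on the log2(TPM + 1) scale from the lowest to the highest GC set. *Igfbp2*, at 62.1% GC, differed by -3.76, *Igfbp4*, at 55.1%, by -3.59, *Igfbp6*, at 60.7%, by -2.90 and *Igfbp7*, at 58.8%, by -2.61. *Insr*, at 46.8%, differed by -1.18 and *Igf1r*, at 49.4%, by -2.35. *Igfbp3*, at 52.5%, differed by -2.05, *Igfbp5*, at 50.3%, by -1.43 and *Irs2*, at 56.6%, by -2.27. The members did not line up strictly by GC content, and low genes such as *Insr* (1.99 and 2.81 TPM in WT Aundiff) have limited room to fall on this scale. Each of the 9 members with a value lay below the median of its own GC set. The same medians for PRC1ctrl after Win18446 minus WT Aundiff ran between 0.17 and 0.43. Kit, strain and the *Ring1* deletion all differ between the 2 mo controls and WT Aundiff and cannot be told apart within that pair. PRC1ctrl after Win18446 shares strain and deletion with the 2 mo controls and the kit with WT Aundiff, but was also treated. The part of each was not tested.

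**Figure D5:**
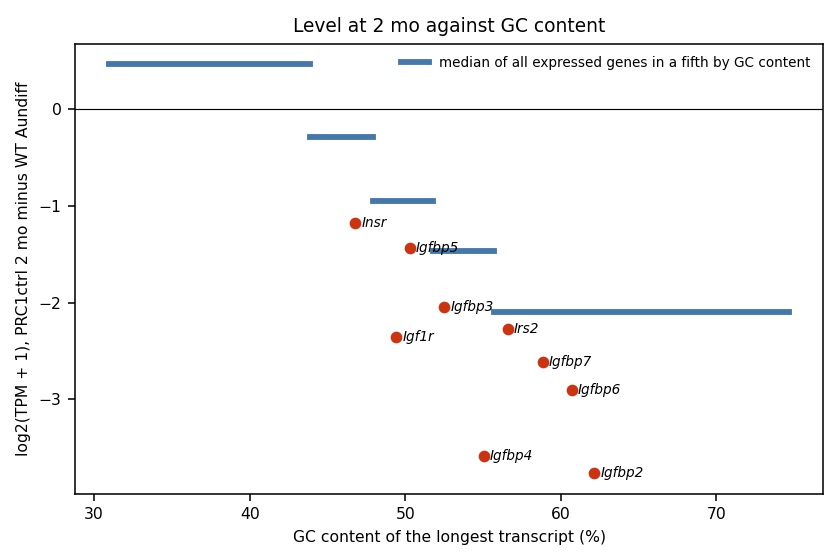
Difference in log2(TPM + 1) between PRC1ctrl at 2 mo and WT Aundiff (mean of 2 libraries each) against the GC content of the longest transcript in percent, for 9 of the 10 genes (red points), with blue bars at the median of all expressed protein-coding genes in each of 5 GC sets. All points lie below the bar of their GC set, and the bars step from 0.47 down to -2.09.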

How the data were processed

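Poly(A) or low-input RNA-seq of sorted spermatogonia was analysed from 12 libraries in 6 groups of 2. The authors mapped reads to GRCm38, and their processing notes name Trim Galore 0.6.6, HISAT2 2.2.1, SAMtools 1.9, HTSeq 1.6.0, DESeq2 1.28.1 and RSEM 1.3.3. The values used here are TPM as the authors deposited them, 1 per gene and library for 55385 genes. Read depth is not known from TPM, so no count test was run, and a low gene has a coarse value. Fits used limma 3.58.1 (trend and robust options) in R 4.3.3 on log2(TPM + 1), with a pseudocount of 1, on genes with at least 1 TPM in at least 2 libraries of the comparison. P-values were adjusted by Benjamini and Hochberg over all genes tested. Calls required an adjusted p under 0.05 and a log2 change above 1 in size. Fold changes on this scale understate those of low genes. The fits were tested on simulated data. With 2 libraries against 2 a two-sided exact permutation test cannot go below p = 0.333, so it was not used. The members, the 60 pathway genes and the marker lists were chosen with earlier results of these data known. Genes named beyond the members were the up to 5 called pathway genes with the largest change in each direction per comparison, all ligands and other receptors, and the 3 genes most like each of 4 members. Further genes were named after their values were seen: *Socs1*, the genes with an unadjusted p under 0.05 at 2 mo, those on opposite sides in the PRC1 comparisons, and the rest of the lists of binding protein partners, proteases and *Igf2* mRNA-binding proteins. Of the pathway genes, 1 is counted in the list but not reported singly here. Coordinates are those of the table, exon overlaps and transcript GC content come from GENCODE vM21, with 54814 of 55385 genes at identical coordinates, and promoters come from RefSeq. Alternatives were a pseudocount of 0.1, no filter, a minimum mean of 5 TPM, scaling of libraries by the median of ratios, no trend or robust options, a replicate block, all 12 libraries in 1 fit, and leaving out each library.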

Additional observations from a re-analysis of the deposited data

Results flagged for a closer look

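No member, but 7 of the other pathway genes reported singly here, had both PRC1cKO libraries on one side of both controls at 2 mo and on the opposite side after Win18446. Of all genes tested, 27.5% lay above and 17.3% below the controls at 2 mo, and 20.1% and 49.3% after Win18446. The share of all genes on opposite sides was not counted, so nothing is read from the number of these genes. The log2 changes at 2 mo and after Win18446 were 0.42 and -0.80 for *Sos1*, 0.26 and -0.61 for *Gab1*, -0.42 and 0.21 for *Dok5*, and 0.58 and -0.24 for *Ptpn2*. They were 0.17 and -0.62 for *Pik3cb*, 0.81 and -0.77 for *Mtor*, and 0.21 and -0.70 for *Igf2bp2*. The limma interaction fit called none of these 7 genes, with adjusted p between 0.0543 and 0.313, and 6 of them had an unadjusted p under 0.05. The genes were picked for opposite sides in the same libraries, which favours a low p, so these p-values are no support for a difference. Of all 18354 genes 4541 had an unadjusted p under 0.05 in this limma fit. With 2 libraries a group, opposite sides alone do not show that the effects differ. The median of all genes was also of opposite sign in the comparisons, 0.22 at 2 mo and -0.19 after Win18446, and kit and treatment cannot be told apart here.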

How the results depend on the processing

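No result changed direction while called. Of the members' fold changes under the alternatives, 6 moved by more than 1 SD between replicates in WT and 86 did not, against 2 and 61 at 2 mo, 12 and 83 after Win18446, and 29 and 104 in the interaction. The shares within the binding protein family did not move by more than 1 SD when *Igfbp1* was left out. The WT counts of 6 pathway genes higher and 5 lower stayed within 1.5 times under every setting that kept all libraries. Other counts moved, and the cause was not tested. Over all genes, the filter of a mean TPM of at least 5 gave 869 lower calls in WT, 6 higher and 90 lower at 2 mo, 104 higher and 851 lower after Win18446, and 90 higher and 86 lower in the interaction. Without a filter there were 0 higher and 0 lower calls at 2 mo, and 334 higher and 453 lower in the interaction. A pseudocount of 0.1 gave 406 lower at 2 mo, 381 higher after Win18446, and 226 higher and 243 lower in the interaction. Median-of-ratios scaling moved the split of higher to lower calls from 1724 and 1430 to 1165 and 1748 in WT, from 31 and 270 to 84 and 833 at 2 mo, from 210 and 1807 to 373 and 1246 after Win18446, and from 506 and 914 to 866 and 293 in the interaction. All 12 libraries in 1 fit gave 662 higher and 1049 lower at 2 mo and 1494 lower in the interaction.

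Among the 60 pathway genes, the fit of all 12 libraries called 1 higher and 1 lower at 2 mo, 1 higher after Win18446 and 3 lower in the interaction. A pseudocount of 0.1 called 5 lower after Win18446 and median-of-ratios scaling 1, and the fit without trend or robust options called 1 lower in the interaction.

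Leaving out each library gave 1268 to 1596 higher and 816 to 1545 lower calls in WT, 1 to 124 and 44 to 149 at 2 mo, 139 to 290 and 899 to 1981 after Win18446, and 15 to 322 and 6 to 1214 in the interaction. The largest departures came without WT Aundiff replicate 2 (816 lower), PRC1cKO 2 mo replicate 1 (1 higher), PRC1ctrl 2 mo replicate 2 (44 lower), PRC1ctrl Win18446 replicate 2 (899 lower) and PRC1cKO Win18446 replicate 1 (6 lower in the interaction). For the pathway genes the ranges were 6 to 10 higher and 3 to 6 lower in WT, 0 and 0 at 2 mo, 2 to 3 and 3 to 6 after Win18446, and 0 higher and 0 to 3 lower in the interaction. A group left with 1 library is assumed to vary like the others.

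Groups share replicate numbers, but nothing says that a number marks a shared animal, litter or day. Deviations of same-numbered libraries correlated at 0.158 in WT, 0.381 at 2 mo and 0.122 after Win18446 across genes. With a replicate block there were 1074 higher and 1098 lower calls at 2 mo and 2249 lower in the interaction, 3 higher and 1 lower among the pathway genes at 2 mo and 5 lower in the interaction. *Igfbp2*, *Igfbp3* and *Igfbp6* were called at 2 mo with the block, and *Igfbp2* and *Igfbp3* in the interaction. Since TPM hides read depth, members below 1 TPM, such as *Irs1*, cannot be compared.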

Other observations

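Genes that act on the binding proteins were mostly low, and this paragraph covers their whole lists, named after their values were seen. The genes of the proteases *Pappa* and *Pappa2*, which cleave IGF-binding proteins, reached 0.32 and 0.47 TPM at most, and *Igfals*, the serum partner of IGFBP3, reached 0.22 TPM. *Htra1*, a secreted protease that also cleaves binding proteins, was at 1.01 and 3.17 TPM in WT Aundiff and 4.38 and 5.13 TPM in WT Adiff (0.99 ± 0.38, SE, limma adjusted p = 0.0865), and at 5.99 and 2.05 TPM in PRC1ctrl against 8.86 and 7.11 TPM in PRC1cKO after Win18446 (0.95 ± 0.42, limma adjusted p = 0.149). The protease inhibitor *Stc2* stood between 0.65 and 4.61 TPM and *Stc1* at 0.30 TPM or less. *Igfbpl1*, a binding protein relative, was at 8.70 and 13.5 TPM in WT Aundiff, 12.6 and 7.45 TPM in WT Adiff, and 9.94 and 9.11 TPM in PRC1ctrl against 12.9 and 15.8 TPM in PRC1cKO after Win18446 (0.54 ± 0.16, limma adjusted p = 0.0428, under the limit on size).

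Of the other *Igf2* mRNA-binding protein genes, *Igf2bp1* was at 68.0 and 76.1 TPM in Aundiff and 90.6 and 93.3 TPM in Adiff in WT cells (0.35 ± 0.13, limma adjusted p = 0.0784) while *Igf2bp3* was at 20.2 and 21.9 against 11.7 and 9.99 TPM (-0.90 ± 0.18, limma adjusted p = 0.0116, under the limit on size).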
